A study of Caenorhabditis elegans with 10 samples.

Results

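Fat synthesis in Caenorhabditis elegans is represented here by 8 genes: pod-2 and fasn-1, which encode enzymes, and sbp-1, mdt-15, nhr-49, nhr-80, nhr-66 and nhr-13, which encode regulators of lipid genes. They were taken as every probe set whose platform annotation named exactly 1 gene, that gene being one of the 8. This gave 11 of the 22548 probe sets on the array other than controls, and all 8 were among the 17118 genes measured. The genes fasn-1, nhr-49 and nhr-66 had 2 probe sets each and the others 1. A further probe set names both mdt-15 and R12B2.6 and was not counted for mdt-15. RNA came from young adult whole worms raised on OP50 bacteria and sorted by machine, in groups of 1000 living animals. The mutant group carried gas-1(fc21), a missense mutation in a core subunit of mitochondrial complex I, and the other was the N2 Bristol wild type. Each group had 5 biological replicates on 1 Affymetrix array apiece, and the study asked which metabolic pathways change downstream of the respiratory chain defect. Whole worms hold every tissue and the germ line together.

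Fatty acid synthesis starts in the cytosol, where acetyl-CoA carboxylase, encoded by pod-2, makes malonyl-CoA, and the multifunctional fatty acid synthase, encoded by fasn-1, builds palmitate from it. The factor SBP-1 is the worm homologue of SREBP, which turns on lipid synthesis genes in animals, and MDT-15 is a subunit of the Mediator complex that binds SBP-1 and NHR-49 and passes their signal to RNA polymerase. NHR-49 is a nuclear hormone receptor known in worms for activating fatty acid desaturase and beta-oxidation genes. NHR-80 and NHR-13 are known as its partners in control of some desaturases, and NHR-66 as its partner in repressing lipid and sphingolipid genes. The intestine is the main fat-storing and fat-making tissue of the worm.

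Deposited values are log2 intensities, and differences are mutant minus wild type on that scale. Array medians lay between 6.22 and 6.61. Transcript of gas-1 itself was 0.67 (SE 0.12) and 0.72 (SE 0.15) higher on its 2 probe sets, the second call being lost without mutant replicates 4 and 5 (limma adjusted p = 0.0557). Its level is no check of the labels for a missense allele. Of the 10 arrays, 4 (wild-type replicates 1 and 5, mutant replicates 4 and 5) stood apart from the others of their group, as was known from earlier results. Intensities of different probe sets are not on a common scale, so levels are not compared between genes. A mean over 9 sperm genes gave 6.77 for wild-type replicate 5 and 8.42 to 8.54 for the other wild-type arrays. It gave 7.75 and 7.69 for mutant replicates 4 and 5 and 6.01 to 6.12 for the other mutant arrays, where the mean of 6 hypodermis genes was 9.81 to 9.83, against 10.78 and 10.72. On wild-type replicate 1 the median of 32 probe sets for bacterial and yeast control transcripts was 5.31, against 4.46 to 4.91 on the other 9 arrays. Results are therefore given over all 10 arrays and without these 4. These 4 were set apart on earlier results of these same data. In the arrays kept, the sperm means were 6.01 to 6.12 in the mutant and 8.49 to 8.54 in the wild type. Genotype and this difference between arrays cannot be told apart there.

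None of the 8 genes passed the test over all 10 arrays. At a limma adjusted p under 0.05, 0 of the 11 probe sets were called, beside 11.8% of all probe sets (7.54% higher in the mutant and 4.28% lower). The groups overlapped on all 11, beside 12.9% of all probe sets with no overlap. At an unadjusted limma p under 0.05, 3 of the 11 passed (sbp-1, mdt-15 and nhr-13), beside 25.3% of all probe sets, and by exact permutation 1 passed (nhr-13), beside 25.6%. Adjusted p-values of the 11 ran from 0.151 to 0.964. The 95% intervals of 10 of the 11 differences lay inside -1 to 1, so a 2-fold change in either direction was outside them, and the exception was fasn-1 (189768_at).

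**Figure D1:**
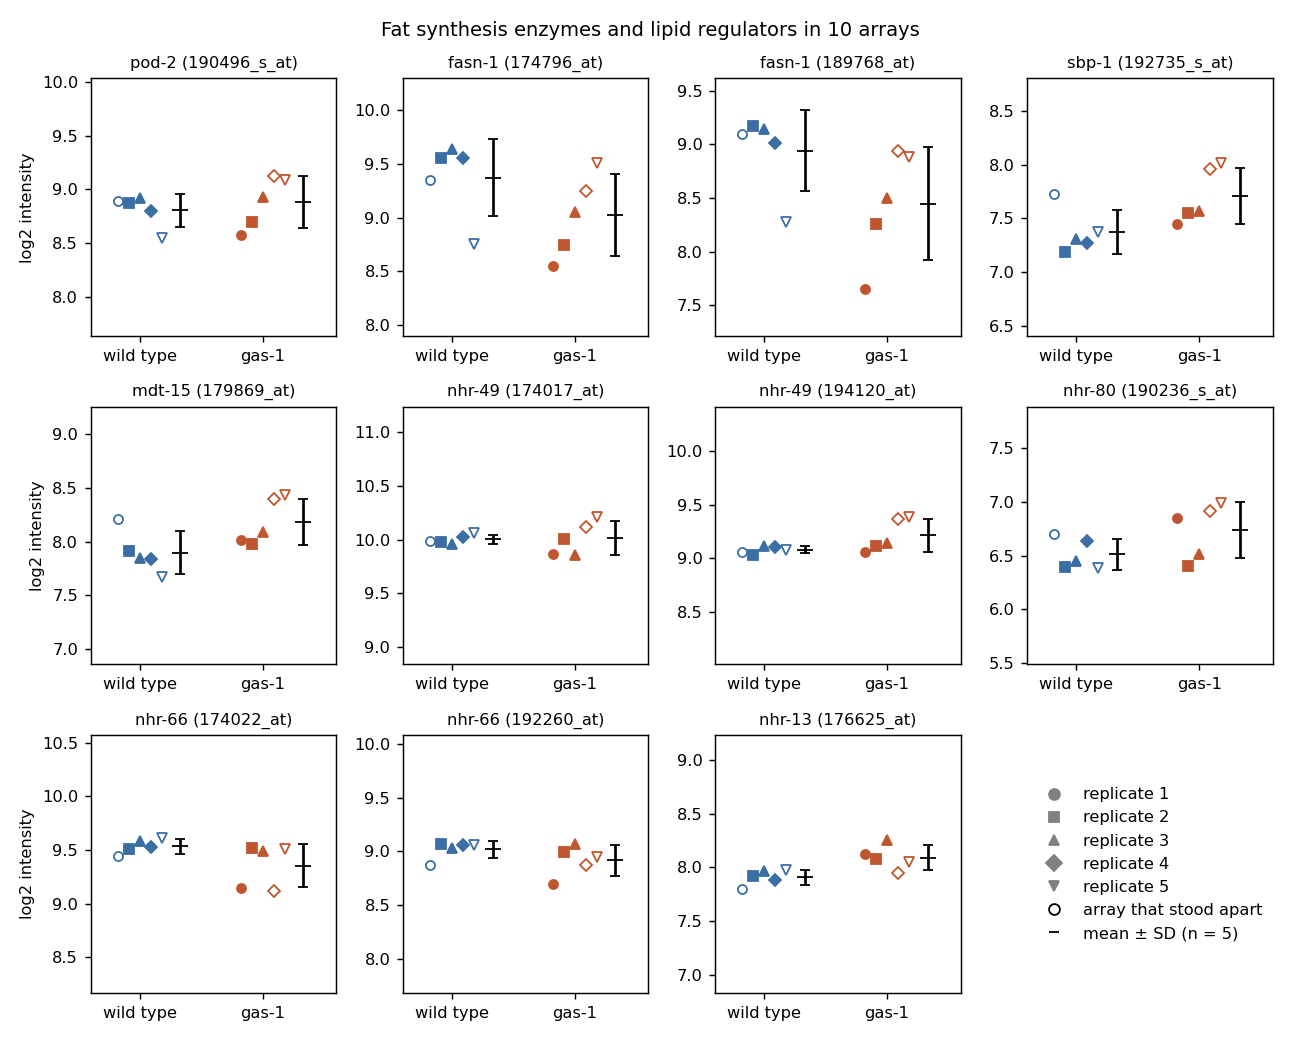
Log2 intensity of each of the 11 probe sets on the 5 wild-type and 5 gas-1 arrays, with 1 symbol per replicate number, open symbols for the 4 arrays that stood apart, and bars for the mean ± SD (n = 5). Every axis spans the same number of log2 units. The groups overlap in all 11 panels, and fasn-1 has the widest spread within groups.

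Neither enzyme gene passed over all 10 arrays. Acetyl-CoA carboxylase pod-2 was at 8.58, 8.70, 8.93, 9.12 and 9.09 on mutant replicates 1 to 5, and at 8.89, 8.87, 8.92, 8.80 and 8.54 on wild-type replicates 1 to 5. The highest values were those of mutant replicates 4 and 5 and the lowest that of wild-type replicate 5, with the groups interleaved. Its means were 8.88 ± 0.24 and 8.80 ± 0.15 (SD, n = 5), a difference of 0.08 (SE 0.12, 95% interval -0.20 to 0.35, limma adjusted p = 0.762). The sign turned without the 4 arrays, to -0.13 (adjusted p = 0.424), and neither value passed.

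Fatty acid synthase fasn-1 was lower in mean in the mutant on both probe sets, by an amount that did not pass. The first (174796_at) was at 8.55, 8.74, 9.05, 9.25 and 9.51 on mutant replicates 1 to 5, and at 9.35, 9.55, 9.64, 9.56 and 8.76 on wild-type replicates 1 to 5. Mutant replicates 1 to 4 lay below wild-type replicates 1 to 4, whereas mutant replicate 5 reached the wild-type level and wild-type replicate 5 fell among the mutants. The difference was -0.35 (SE 0.21, 95% interval -0.82 to 0.12, limma adjusted p = 0.355, exact permutation p = 0.143). On the second (189768_at) the mutant arrays read 7.66, 8.26, 8.50, 8.94 and 8.89 and the wild-type arrays 9.10, 9.17, 9.14, 9.01 and 8.27, in order of replicate number. That difference was -0.49 (SE 0.26, 95% interval -1.07 to 0.08, adjusted p = 0.278, exact permutation p = 0.103). On this probe set wild-type replicates 1 to 4 lay above all 5 mutant arrays, and wild-type replicate 5 lay among them.

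Without the 4 arrays that stood apart, fasn-1 was called lower on both probe sets. The differences were then -0.80 (SE 0.13, 1.74-fold lower, 95% interval -1.101 to -0.501, limma adjusted p = 0.00434) and -0.97 (SE 0.20, 1.96-fold lower, 95% interval -1.44 to -0.50, adjusted p = 0.0137), with 3 arrays a group. In that fit 3 of the 11 probe sets were called, both of fasn-1 lower and sbp-1 higher, beside 21.5% of all probe sets (10.3% higher and 11.2% lower). Weighting each array by its fit to its group, in place of leaving any out, called fasn-1 too (limma adjusted p = 0.01 and 0.0131). It also called sbp-1 and nhr-13, beside 24.4% of all probe sets. The weights come from these same values and count arrays far from their group less, so they are no separate support. Leaving out any single array called none of the 11. Mutant replicates 4 and 5 and wild-type replicate 5, among the 4 left out, had fasn-1 furthest toward the other group. Leaving them out therefore widens the difference by construction. In the arrays kept, the mean of 10 intestine genes was 9.70 to 9.85 in the mutant and 10.27 to 10.28 in the wild type. Genotype and that mean cannot be told apart there.

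The mean of the intestine list, though not every gene in it, was low on the arrays where fasn-1 was low. Taken over 10 intestine genes, the mean level was 9.77 for the fifth wild-type array and 9.70 to 9.85 for mutant replicates 1 to 3, and these arrays had the lowest fasn-1 on both probe sets. It was 10.20 and 10.27 on mutant replicates 4 and 5 and 10.27 to 10.28 on wild-type replicates 1 to 4. Of the 10 genes, 1 was called higher and 2 lower over all arrays, none had both means below the control transcripts, and their summed intensity was 20472 to 26934 in the mutant and 23370.1 to 33098 in the wild type. Of these 10 genes, 8 were lower on wild-type replicate 5 than on the other wild-type arrays and 7 were higher on mutant replicates 4 and 5 than on the other mutants. The metallothionein gene mtl-2 went the other way in the mutant, at 11.61 and 11.85 on replicates 4 and 5 against 12.43 to 12.55. The same split of arrays was seen in other tissues. The sperm means were also lowest on the fifth wild-type array and mutant replicates 1 to 3, as were the means of 6 body muscle genes (8.68 to 9.09, against 9.29 to 10.10 elsewhere), whereas those of 12 oocyte and embryo genes were highest there (12.20 to 12.40, against 12.02 to 12.10). Of the 9 sperm genes 0 were higher and 1 lower, 1 had both means below the control transcripts, and their summed intensity was 818 to 7599 in the mutant and 2442 to 17377 in the wild type. By limma 0 body muscle genes and 0 oocyte and embryo genes were called, and no gene of these lists had both means below the control transcripts. The summed intensity of the body muscle genes was 6567 to 11812 in the mutant and 4919 to 8666 in the wild type, and that of the oocyte and embryo genes 53072 to 65501 and 56429 to 70299. The part of any of these lists in the fasn-1 result was not tested. In RNA of whole worms, fewer cells of a type and less RNA per cell cannot be told apart.

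**Figure D2:**
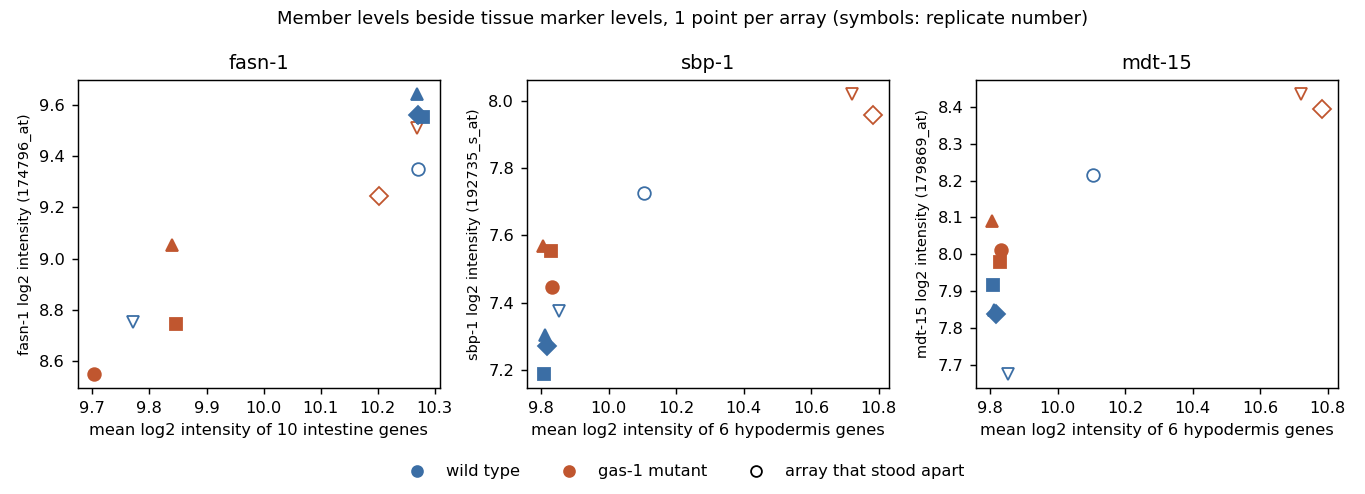
Log2 intensity of fasn-1 (174796_at), sbp-1 and mdt-15 against the mean log2 intensity of 10 intestine genes (fasn-1) or 6 hypodermis genes (sbp-1, mdt-15), 1 point per array, with open symbols for the 4 arrays that stood apart. The arrays fall into separate clusters, and low fasn-1 goes with intestine means of 9.70 to 9.85. The highest sbp-1 and mdt-15 values are on mutant replicates 4 and 5, with hypodermis means of 10.78 and 10.72. Those arrays also had high medians over all probe sets (6.58 and 6.57).

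The log2 value of fasn-1 minus that of pod-2, taken within each array, was chosen after the values were seen and is given as a description, with no test. With the fasn-1 probe set 174796_at it was -0.03, 0.05, 0.13, 0.12 and 0.42 on mutant replicates 1 to 5, and 0.46, 0.68, 0.72, 0.76 and 0.21 on wild-type replicates 1 to 5. Mutant replicates 1 to 4 lay below every wild-type array, and mutant replicate 5 lay above wild-type replicate 5. The group means differed by -0.43, and by -0.57 with 189768_at. Leaving out the arrays that stood apart gave differences of -0.67 and -0.84.

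The SREBP homologue sbp-1 was higher in mean in the mutant. Its values were 7.45, 7.55, 7.57, 7.96 and 8.02 on mutant replicates 1 to 5, and 7.73, 7.19, 7.31, 7.27 and 7.38 on wild-type replicates 1 to 5. All 5 mutant arrays exceeded wild-type replicates 2 to 5, and wild-type replicate 1 lay above 3 of them. The difference was 0.34 (SE 0.14, 1.26-fold, 95% interval 0.02 to 0.65, limma adjusted p = 0.164, exact permutation p = 0.0635). Without the 4 arrays it was 0.27 (SE 0.07, adjusted p = 0.0369), and it passed with array weights at 0.35 (adjusted p = 0.0183). Leaving out wild-type replicate 1, the only wild-type array to overlap the mutants, removes the overlap by construction. Neither pass is separate support.

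Transcript of mdt-15, the Mediator subunit that works with SBP-1, was higher in mean in the mutant too. It was at 8.01, 7.98, 8.09, 8.40 and 8.44 on mutant replicates 1 to 5, and at 8.21, 7.92, 7.85, 7.84 and 7.67 on wild-type replicates 1 to 5. Again every mutant array was above wild-type replicates 2 to 5, and wild-type replicate 1 was above 3 of the mutants. The difference was 0.28 (SE 0.13, 1.22-fold, 95% interval 0.004 to 0.565, limma adjusted p = 0.191, exact permutation p = 0.0714). It was 0.16 without the 4 arrays (adjusted p = 0.146). Mutant replicates 4 and 5, where both genes were highest, also had the highest hypodermis mean, as did wild-type replicate 1 (10.10) within its group. Of the 6 hypodermis genes, 0 were called in either direction by limma, none had both means below the control transcripts, and their summed intensity was 32733 to 38503 in the mutant and 23865 to 34944 in the wild type. The mean of 8 neuron genes, 1 of them called higher, was likewise highest on mutant replicates 4 and 5 (7.91 and 7.92) and, in the wild type, on replicate 1 (7.65). Those 3 arrays also had the highest medians over all probe sets (6.58, 6.57 and 6.61, against 6.22 to 6.42 elsewhere). With array medians subtracted, the differences were 0.29 for sbp-1 and 0.23 for mdt-15. The part of the hypodermis genes, the neuron genes or the array medians in the sbp-1 and mdt-15 values was not tested.

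**Figure D3:**
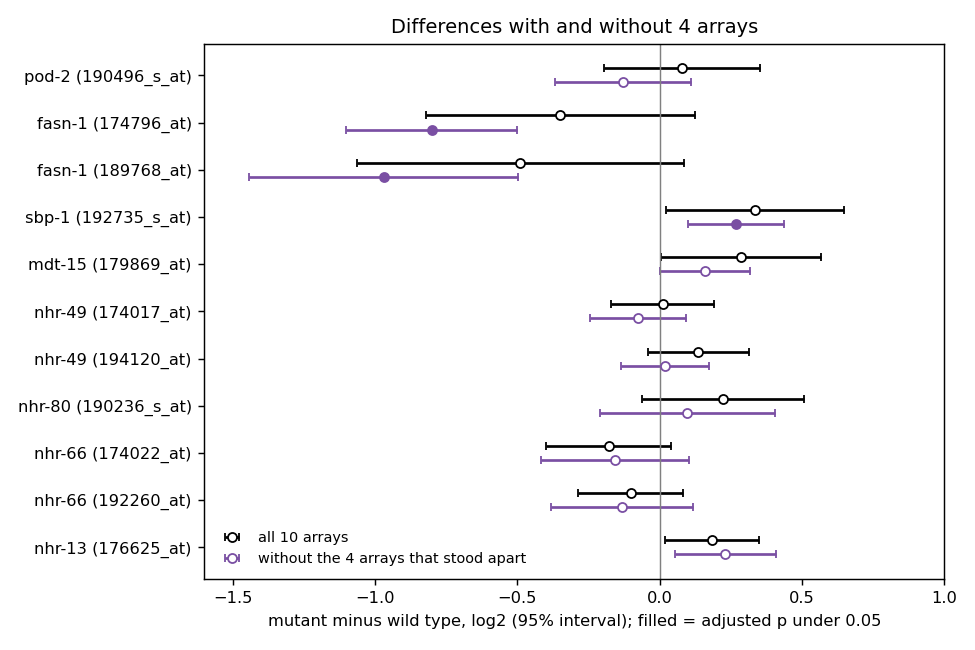
Difference of each probe set, mutant minus wild type in log2 units, with its 95% interval from limma, over all 10 arrays (black) and without the 4 arrays that stood apart (purple); filled points have an adjusted p under 0.05. No black point is filled, and the filled purple points are both fasn-1 probe sets (-0.80 and -0.97) and sbp-1 (0.27).

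The receptor nhr-49 showed the narrowest wild-type spread of the 8 genes on both probe sets. The first (174017_at) was at 9.86 to 10.21 in the mutant and 9.96 to 10.07 in the wild type, with means of 10.01 ± 0.16 and 10.00 ± 0.04 (SD, n = 5). The difference was 0.01 (SE 0.08, 95% interval -0.17 to 0.19, limma adjusted p = 0.964), and its sign turned under 8 of 21 alternative settings without passing in any. The second (194120_at) was at 9.06 to 9.39 in the mutant and 9.04 to 9.12 in the wild type, a difference of 0.13 (SE 0.08, 95% interval -0.04 to 0.31, adjusted p = 0.345). Mutant replicates 4 and 5 were the highest of the 10 arrays on both, and without the 4 arrays the differences were -0.08 and 0.02.

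Its partner nhr-80 was brighter than most of the control transcripts and dimmer than a few of them. It read 6.86, 6.40, 6.52, 6.92 and 6.99 on mutant replicates 1 to 5, and 6.70, 6.40, 6.45, 6.64 and 6.38 on wild-type replicates 1 to 5. Between 1 and 4 of the 32 control probe sets were brighter on each array. The difference was 0.22 (SE 0.13, 95% interval -0.06 to 0.51, limma adjusted p = 0.326), with 3 mutant arrays above all wild-type arrays and the other 2 among them. Its probe set has the suffix that marks probes shared with other transcripts, as have those of pod-2 and sbp-1. Among other genes named here, those of nhr-61, nhr-79, cpt-4, acdh-9, pmt-1, hyl-1, dhs-3, fitm-2, mboa-2, acl-5 and fat-6 have it. Both probe sets of gas-1 have it too.

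The receptor genes nhr-66 and nhr-13 had differences of opposite sign, and neither passed over all 10 arrays. For nhr-66 the first probe set (174022_at) read 9.14, 9.52, 9.49, 9.12 and 9.51 in the mutant and 9.44, 9.51, 9.58, 9.53 and 9.62 in the wild type, in order of replicate number. Mutant replicates 1 and 4 were low and the other 3 lay within the wild-type range. The difference was -0.18 (SE 0.10, 95% interval -0.40 to 0.04, limma adjusted p = 0.304), and on the second (192260_at) -0.10 (SE 0.08, adjusted p = 0.518). For nhr-13 the values were 8.12, 8.08, 8.26, 7.95 and 8.05 in the mutant and 7.80, 7.92, 7.97, 7.88 and 7.97 in the wild type. Mutant replicates 1, 2, 3 and 5 were above every wild-type array, and mutant replicate 4 lay within the wild-type range. The difference was 0.18 (SE 0.07, 1.13-fold, 95% interval 0.02 to 0.35, adjusted p = 0.151, exact permutation p = 0.0238). It was 0.23 without the 4 arrays (adjusted p = 0.0709) and was called only with array weights (0.20, adjusted p = 0.032), among the 20 alternatives run for it.

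Where a gene had 2 probe sets, they followed each other across the 10 arrays to different degrees. Pearson's r between them was 0.947 for fasn-1, 0.83 for nhr-66 and 0.733 for nhr-49, and Spearman's rho was 0.891, 0.576 and 0.406. These are descriptions over 10 arrays that fall into clusters. With array medians subtracted, the 28 pairs of different genes ranged from -0.618 for mdt-15 with nhr-66 to 0.86 for sbp-1 with mdt-15. The enzyme genes pod-2 and fasn-1 had r = 0.627 and rho = 0.394. With group means taken out their r was 0.86, the highest of the 28 pairs.

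The genes most like each member were taken by Pearson's r of median-centred values over the 10 arrays, among 17117 other genes. For fasn-1 they were ctsa-3.1, C31H5.6 and act-5 (r = 0.967, 0.954 and 0.948), and act-5 encodes an actin of the intestinal brush border that was also in the intestine list. For pod-2 they were gpb-1, a G protein beta subunit, vha-15, a subunit of the vacuolar ATPase, and bcf-1 (r = 0.89, 0.875 and 0.871). The gene most like sbp-1 was coel-1 (0.945), that most like mdt-15 was nlp-25 (0.968), a neuropeptide-like gene, and that most like nhr-49 was bre-4 (0.974). For nhr-80 it was T24E12.13 (0.891), for nhr-66 eaf-1 (0.985) and for nhr-13 wht-2 (0.987). Such values describe these arrays, which share genotype and the differences that set 4 arrays apart.

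Lists of genes from the pathways around the 8 are given beside the share of all genes called, and no list was tested against the 8 or against other genes. Per gene, on its brightest probe set, 7.55% of 17118 genes were called higher and 4.47% lower (12% in all), and the median difference was 0.00. Counts without the 4 arrays stand beside 10.3% of all probe sets called higher and 11.2% lower in that fit. Of 12 genes listed under acetyl-CoA and malonyl-CoA supply and AMP-activated kinase, not all upstream of pod-2, 1 rose and 1 fell (median 0.05). Without the 4 arrays 1 rose and 2 fell. ATP citrate lyase makes cytosolic acetyl-CoA, and its gene acly-1 fell by 0.67 on the log2 scale (SE 0.08, limma adjusted p = 0.000637). It went from 10.08 to 10.34 in the wild type to 9.49 to 9.77 in the mutant with no overlap. The other ATP citrate lyase gene of the list, acly-2, did not pass (0.002, adjusted p = 0.992). The kinase subunit gene aakg-4 rose by 0.74 (SE 0.16, adjusted p = 0.0156). It read 5.80 to 5.98 in the wild type, against medians of 4.46 to 5.31 for the control transcripts.

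**Figure D4:**
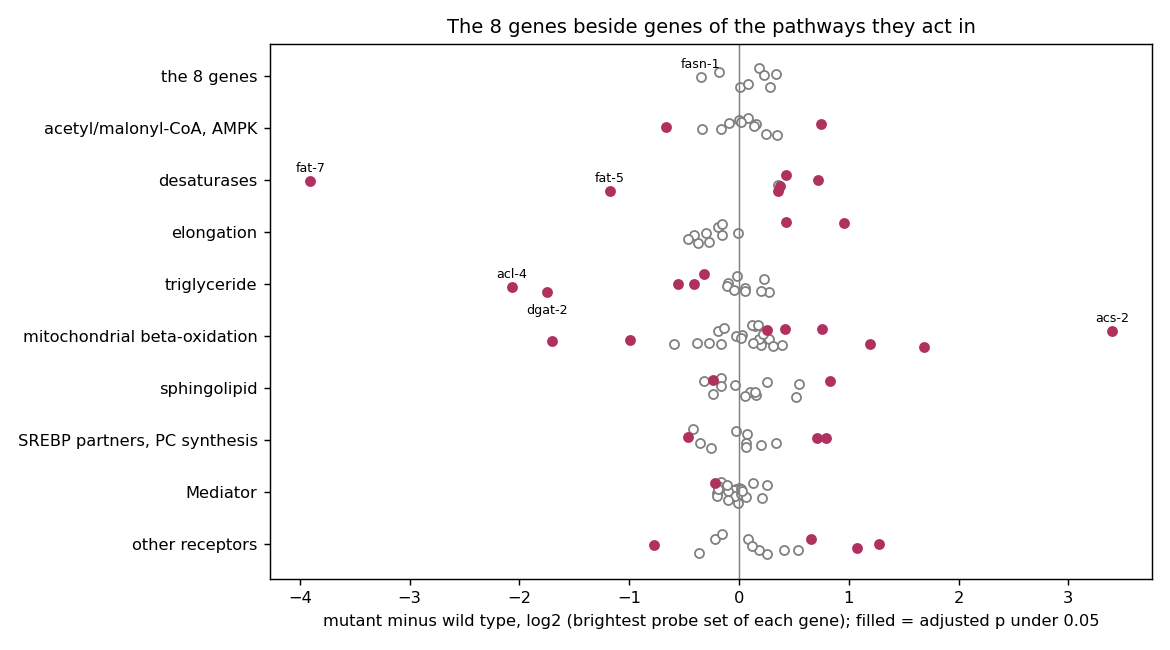
Difference of each gene, mutant minus wild type in log2 units on its brightest probe set, for the 8 genes (top row) and 9 lists of genes around them, with filled points for an adjusted p under 0.05. The 8 genes lie between -0.35 and 0.34 with none filled, and the lists reach -3.91 (fat-7) and 3.40 (acs-2).

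Desaturases, some of which are known targets of SBP-1, MDT-15, NHR-49, NHR-80 and NHR-13, had 4 of 7 called higher and 2 lower (median 0.36). Those called higher were fat-1, fat-2, fat-3 and fat-4, and those called lower were fat-5 and fat-7. The gene fat-6 did not pass (0.35, limma adjusted p = 0.272). With each array centred on its median, 1 was called higher and 2 lower. The stearoyl-CoA desaturase fat-7 fell by 3.91 (SE 0.22) and the palmitoyl-CoA desaturase fat-5 by 1.18 (SE 0.24, limma adjusted p = 0.00953, or 0.058 without mutant replicates 4 and 5). Without the 4 arrays that stood apart fat-5 fell by 0.68. In the mutant it read 5.55 to 6.24, against medians of 4.46 to 5.31 for the control transcripts. The polyunsaturated fatty acid desaturases fat-3 (0.72, SE 0.16) and fat-2 (0.43, SE 0.11) rose, the call of fat-2 being lost on leaving out any of 8 single arrays, at an adjusted p of 0.0846 at most, and on centring (0.154). In elongation 2 of 11 genes rose and 0 fell (median -0.19). They were the elongase elo-4 (0.96, SE 0.16) and the dehydratase hpo-8 (0.43, SE 0.10, its call lost without mutant replicates 4 and 5 at an adjusted p of 0.0535). In the wild type elo-4 read 5.26 to 6.14, near the control transcripts (medians of 4.46 to 5.31), so the size of its rise is uncertain. Without the 4 arrays that stood apart, 7 of the 11 elongation genes were called lower, beside 11.2% of all probe sets.

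In triglyceride synthesis and storage, a list that also holds lipase genes, 5 of 14 genes were lower and 0 higher (median -0.07). Without the 4 arrays, 4 were lower and 1 higher, the lipase gene atgl-1 (0.259, limma adjusted p = 0.0439). The acyltransferase acl-4 fell by 2.07 (SE 0.17, limma adjusted p = 4.37e-05). The gene dgat-2, for an enzyme of the last step of triglyceride synthesis, fell by 1.75 (SE 0.21, adjusted p = 0.00044). Other acyltransferase genes of the list were not called without the 4 arrays. They were mboa-2 (0.121, limma adjusted p = 0.285), acl-5 (-0.102, 0.407) and acl-6 (-0.062, 0.558), among others. For dgat-2, wild-type replicates 1 to 4 read 8.51 to 8.55 and replicate 5 read 7.54, above all mutant arrays at 6.33 to 6.96. The lipid droplet gene dhs-3 (-0.56, SE 0.09) and the fat storage gene fitm-2 (-0.41, SE 0.07) fell as well.

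In mitochondrial beta-oxidation, the other pathway known to be under NHR-49, 6 of 27 genes rose and 2 fell (median 0.14), or 6 and 3 without the 4 arrays. The acyl-CoA synthetase acs-2 rose by 3.40 (SE 0.33), the carnitine palmitoyltransferase cpt-4 by 1.69 (SE 0.26) and the acyl-CoA dehydrogenase acdh-9 by 1.19 (SE 0.11), while acdh-8 fell by 1.70 (SE 0.40). In the wild type cpt-4 read 5.04 to 6.06, near the control transcripts (medians of 4.46 to 5.31) and below their median on replicate 1. In the mutant acdh-8 was near them too (5.27 to 6.57), so both sizes are uncertain. The call of acdh-8 was lost on leaving out mutant replicate 2 or 3 or wild-type replicate 2, 3 or 4, at an adjusted p of 0.0595 at most. Of 14 sphingolipid enzymes, a class repressed by NHR-49 with NHR-66, 1 rose and 1 fell (median 0.08), or 0 and 3 without the 4 arrays. The serine palmitoyltransferase subunit gene sptl-2 rose by 0.83 (SE 0.18, limma adjusted p = 0.0142, or a difference of 0.455 with an adjusted p of 0.0579 without the 4 arrays) and the ceramide synthase hyl-1 fell by 0.24 (SE 0.06), a call lost on leaving out any of 8 single arrays, at 0.0817 at most.

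Among partners of SBP-1 and genes of phosphatidylcholine synthesis, a pathway known to feed back on SBP-1, 2 of 12 rose and 1 fell (median 0.06), or 1 and 3 without the 4 arrays. The phosphoethanolamine methyltransferase pmt-1 rose by 0.79 (SE 0.16, limma adjusted p = 0.0105), or 0.48 without the 4 arrays. The choline kinase genes ckb-1 (0.71, SE 0.19) and ckb-4 (-0.47, SE 0.08) were called in opposite directions, and ckb-1 lost its call without the 4 arrays (adjusted p = 0.183) and on leaving out any of 8 single arrays (0.0872 at most). Of 23 Mediator subunits other than mdt-15, 0 rose and mdt-19 fell by 0.22 (SE 0.06, adjusted p = 0.0386, median of the list -0.05), which was lost on leaving out any of 9 single arrays (0.0965 at most).

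The nuclear receptor family as a whole gave a wider frame for nhr-49, nhr-80, nhr-66 and nhr-13. Of 254 genes named nhr, 40 rose and 3 fell (median 0.06), and all 4 receptors were among the 211 that did not pass. Without the 4 arrays 50 rose and 12 fell, beside 10.3% and 11.2% of all probe sets. Among those that rose were nhr-61 (3.03, SE 0.16) and nhr-90 (1.77, SE 0.15, at 5.72 to 6.25 in the wild type, not far above the control transcripts). Another, nhr-210, read 6.52 to 6.86 in the mutant and 4.72 to 5.10 in the wild type, where it was at the level of the control transcripts (medians of 4.46 to 5.31), so no size is given for its rise. Of 13 other receptors with known metabolic roles, 3 rose and 1 fell (median 0.18), or 3 and 3 without the 4 arrays. The sterol and xenobiotic receptor gene nhr-8 rose by 1.27 (SE 0.14), nhr-79 by 1.07 (SE 0.12) and nhr-105 by 0.65 (SE 0.17, limma adjusted p = 0.0344). In the wild type nhr-79 read 5.45 to 6.04, near the control transcripts, so the size of its rise is uncertain. The receptor gene nhr-114 fell by 0.78 (SE 0.17, adjusted p = 0.0132). The call of nhr-105 was lost on leaving out any of 5 single arrays, at an adjusted p of 0.0879 at most, and that of nhr-114 on leaving out mutant replicates 4 and 5 together (0.0797).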

How the data were processed

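Total RNA (1 µg per sample) from 500 to 1000 sorted worms was labelled with biotin and hybridised to Affymetrix arrays, per the labels' protocols. The deposited log2 intensities are on a scale inferred from their range. How the authors corrected background, summarised probes and normalized is not given in the sources used. Array medians spanned 0.386, under the limit of 0.5 set for quantile normalization, so values were used as deposited by the authors. The 77 control probe sets were left out and no filter was applied. Arrays have no read depth, and precision rests on the number of arrays and the spread between them.

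The main test, on 22548 probe sets, was that of limma 3.58.1, run under R 4.3.3 (linear fit, empirical Bayes, genotype as the only term, 2-sided), with Benjamini-Hochberg adjustment over all of them and a call at an adjusted p under 0.05. Intervals are limma's 95% intervals. For single probe sets an exact 2-sided permutation test ran over 252 assignments, which can reach 0.00794 at the lowest. The fit was tested on simulated data with known changes. Gene names came from the platform annotation, updated by gene identifier through RefSeq (WBcel235), which held 20701 of the 20766 probe sets naming 1 gene. A gene with several probe sets was represented in lists by the brightest. No coordinates are printed, since no source names the genome build of the array.

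The members and all gene lists were chosen with earlier results of these data known. Named were all members, gas-1 and up to 4 called genes per list with the largest changes (at least 1 per direction). Of the 3 genes most like each member, all were named for fasn-1 and pod-2, and the first for each other member. Genes with both means at the level of control transcripts were not named under this rule. Some further genes of the lists were named beside these. Alternatives were quantile normalization, centring, filters on the lowest 33% or 50% of mean values, array weights, a robust fit with an intensity trend, a replicate block, omission of single arrays and of those that stood apart, and the mean of a gene's probe sets. The same alternatives for named list genes, scaling and left-out arrays for list counts, and fasn-1 minus pod-2 were added after seeing the data. The labels call the samples biological replicates. Deviations of arrays with the same replicate number were weakly correlated at most.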

Additional observations from a re-analysis of the deposited data

Results flagged for a closer look

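In groups of 5, an array was marked where its gap to the nearest other exceeded 0.71 of the group's whole range (Dixon's 95% value). Of 84 groups of member, pathway and gas-1 values, 20 were marked, where chance marks about 1 in 20.

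Among the 8 genes, fasn-1 (189768_at) was low on wild-type replicate 5 at 8.27, against 9.01 to 9.17 on the other 4, and nhr-66 (192260_at) was low on wild-type replicate 1 at 8.88, against 9.03 to 9.07.

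On wild-type replicate 5 the pathway genes with low values were fat-7 (10.31, others at least 11.33), acly-1 (10.08, others at least 10.27), pmt-1 (10.48, others at least 10.92), nhr-114 (7.49, others at least 8.10), acdh-8 (6.01, others at least 7.85), acdh-9 (8.89, others at least 9.26) and dgat-2 (7.54, others at least 8.51). Both gas-1 probe sets were low there too, at 9.24 and 10.12. High on the same array were fat-2 (12.17, others at most 11.71), hpo-8 (11.11, others at most 11.004), nhr-79 (6.04, others at most 5.54) and nhr-61 (7.07, others at most 6.85).

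On wild-type replicate 1, elo-4 (5.26), nhr-8 (7.42), cpt-4 (5.04) and nhr-90 (5.72) were low. In the mutant only elo-4 was marked, low on replicate 3 at 6.60, against 6.85 to 6.95 on the other 4.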

How the results depend on the processing

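Over 226 values of the 11 probe sets at alternative settings, 208 kept their direction and side of the threshold, 7 passed only at the alternative and 11 changed sign without passing. The sign changes were pod-2 with array weights (-0.021), without the 4 arrays (-0.13) and without mutant replicates 4 and 5 (-0.072), and nhr-49 (174017_at) under quantile normalization (-0.012), centring (-0.04), array weights (-0.013), without the 4 arrays (-0.077), without mutant replicates 4 and 5 (-0.093) and with single arrays left out (range -0.04 to 0.048). Member probe sets called went from 0 higher and 0 lower to 2 and 2 with array weights and to 1 and 2 without the 4 arrays, and stayed at 0 and 0 with any single array left out.

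Over all probe sets, 1701 were higher and 964 lower. Array weights gave 2969 and 2535. The 4 arrays left out gave 2317 and 2522, and wild-type replicates 1 and 5 left out gave 1529 lower. Single arrays left out gave 1176 to 1868 higher and 479 to 1609 lower. Same-numbered arrays of the groups deviated with correlations of -0.175 to 0.098, which shows no strong pairing. A small effect shared by number could be missed beside the large deviations of single arrays. With the replicate block 1069 were higher and 370 lower, no member was called, and the calls of gas-1, pmt-1 and sptl-2 were lost, among others.

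List counts moved as follows. Without the 4 arrays, elongation had 7 lower, acetyl-CoA supply 2 lower, phosphatidylcholine synthesis 1 higher and 3 lower, Mediator 0 lower, other receptors 3 lower, sphingolipid enzymes 0 higher and 3 lower, triglyceride genes 1 higher, and nhr genes 12 lower. Centring gave 1 desaturase and 1 elongation gene higher, and 0 sphingolipid enzymes lower. Quantile normalization and centring each gave 2 lower for acetyl-CoA supply, 0 for Mediator and 2 for other receptors, and the mean of a gene's probe sets gave 2 lower for acetyl-CoA supply and for other receptors. With single arrays left out, counts ranged from 2 to 4 desaturases higher, 0 to 3 elongation genes lower, 1 to 2 acetyl-CoA supply genes higher and 1 to 2 lower, 1 to 2 phosphatidylcholine genes higher and 1 to 3 lower, 0 to 1 Mediator genes lower, 2 to 4 other receptors higher, 1 to 3 beta-oxidation genes lower, 0 to 1 sphingolipid enzymes lower, 0 to 1 triglyceride genes higher, and 29 to 44 nhr genes higher and 2 to 4 lower. The causes were not tested.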
